A study of Mus musculus with 141 samples.

Results

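The 34 genes described here encode enzymes, regulators and transporters of sterol and fatty acid synthesis, and they were taken by symbol from the 46517 genes of the series. They comprise 6 enzymes of the mevalonate and isoprenoid steps, 11 enzymes that make squalene and build the sterol rings, 5 genes of sterol sensing and transport, 4 enzymes of fatty acid synthesis, 6 elongases and desaturases, and 2 sterol efflux transporters. The mevalonate pathway turns acetyl-CoA into isoprenoid units, which are joined to squalene, closed into rings by lanosterol synthase and trimmed to cholesterol. Acetyl-CoA also feeds fatty acid synthase, whose products are lengthened by elongases and given double bonds by desaturases. When sterols are low, the membrane-bound factors made from Srebf1 and Srebf2 are released to the nucleus and raise transcription of most of these genes, while the proteins made from Insig1 and Insig2 hold them back. Nuclear receptors of the LXR family respond to excess sterol and raise the efflux pumps Abca1 and Abcg1, and T cells that divide after stimulation are known to draw on both pathways for new membrane.

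RNA was sequenced from CD4 T cells of C57BL/6 mice at 9 times from 0.5 to 72 h of culture. In courses 4 to 6, each a numbered biological replicate, cells received TGFb (1 ng/ml) and IL6 (20 ng/ml) together with IL1b (10 ng/ml), with IL21 (20 ng/ml) or with both. In courses 1 to 3 they received IL6 and TGFb, the pair that starts the Th17 programme in mice, or no cytokines. Every stimulated culture had plate-bound anti-CD3 (0.5 µg/ml) and anti-CD28 (5 µg/ml), which stand in for antigen and co-stimulation. Each set of courses had its own naive cells at 0 h, sorted as CD4+CD25-CD44lo from spleen and lymph nodes. The labels say neither the age of the mice nor whether animals were pooled.

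There were 47 groups of 3 libraries, of which courses 1 to 3 made up 57 libraries and courses 4 to 6 another 84, with 16 to 47.1 M counted reads each (median 25.4 M). Values are CPM, the reads of a gene per 1e+06 counted reads, which can be set side by side between libraries for a gene but not between genes of different length. The CD4 T cell marker Cd3e stood at 186 to 680 CPM in courses 1 to 3. Markers of other cells that a sort can carry over were low. The 13 myeloid markers summed to 1.88 to 2.99 CPM in cells without cytokines at 24 h, against 30.6 to 40.9 CPM in naive cells. Of those tested, 10 of 10 were called lower, as were 7 of 7 erythroid and platelet markers, 4 of 4 NK and gamma-delta T cell markers and 7 of 9 B cell markers. The 2 CD8 T cell markers did not follow in cells without cytokines, with sums of 32.8 to 40.6 CPM at 24 h, against 16.8 to 24 CPM in naive cells. With IL6 and TGFb their sums at 24 h were lower than in naive cells, at 1.98 to 2.64 CPM. Of the pair Cd8b1 was called higher without cytokines than in naive cells at 24 h, and lower with IL6 and TGFb than without from 6 h on, and their part in the results was not tested. At 72 h without cytokines the library of course 1 stood 0.63 log2 units from its group's mean (root mean square over genes), against 0.342 and 0.334 for courses 2 and 3. A gene was called changed when limma, fitted over all genes of a set, gave a Benjamini-Hochberg adjusted p under 0.05. Changes are log2 fold changes ± SE, with 3 libraries per group. The SE and p come from 1 spread per gene, pooled over all groups of a set, and not from the libraries compared alone. They therefore do not show where groups differ in spread, as at 72 h without cytokines. All 34 genes could be tested in both sets, among 14695 and 14859 genes.

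Promoter sequence was at hand in the RefSeq table (build GRCm38.p6) for 26 of the 34 genes, as 33 windows of 300 bases around a gene start. Fdps, Fdft1, Sqle, Stard4, Scd1, Scd2, Fads1 and Abcg1 had no entry there. Searched on both strands, CCAAT, the box bound by NF-Y, stood in 22 of the 26 genes (84.6%), against 41.1% of the 27025 genes in the table. GGGCGG, the core bound by Sp1, stood in 21 of 26 (80.8%), against 38.2% of all genes, and CACGTG, the E-box, in 6 of 26 (23.1%), against 8.09%. TCACNCCAC, a strict form of the sterol regulatory element, stood in 1 of 26 genes, Hmgcs1 (3.85%), against 1.44% of all genes. Matches of different motifs did not overlap in these windows. A match is a run of letters and not a bound site, and a window without one says nothing about the factor. The promoters below are those of 4 genes the results turn on, Hmgcs1 and Idi1, which were higher at 72 h than in naive cells, Mvk, which was lower early with the cytokines, and Elovl6, which was higher. All are on the plus strand, at chr13:119690101-119690400 (Hmgcs1), chr13:8885356-8885655 (Idi1), chr5:114444019-114444318 (Mvk) and chr3:129532136-129532435 (Elovl6). Capitals mark TCACNCCAC and CCAAT on either strand, so that CCAAT of the minus strand reads ATTGG.
Hmgcs1: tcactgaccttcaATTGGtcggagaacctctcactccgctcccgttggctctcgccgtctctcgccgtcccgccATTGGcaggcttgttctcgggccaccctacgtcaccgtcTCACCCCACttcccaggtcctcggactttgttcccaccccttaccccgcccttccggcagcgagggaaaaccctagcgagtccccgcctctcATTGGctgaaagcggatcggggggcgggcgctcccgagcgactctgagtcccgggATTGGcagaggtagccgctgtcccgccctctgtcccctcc
Idi1: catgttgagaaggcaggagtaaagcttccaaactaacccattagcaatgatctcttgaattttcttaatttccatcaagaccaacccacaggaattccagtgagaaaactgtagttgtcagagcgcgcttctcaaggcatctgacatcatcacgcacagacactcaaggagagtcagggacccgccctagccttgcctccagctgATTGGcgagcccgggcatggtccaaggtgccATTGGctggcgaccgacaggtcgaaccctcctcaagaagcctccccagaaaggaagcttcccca
Mvk: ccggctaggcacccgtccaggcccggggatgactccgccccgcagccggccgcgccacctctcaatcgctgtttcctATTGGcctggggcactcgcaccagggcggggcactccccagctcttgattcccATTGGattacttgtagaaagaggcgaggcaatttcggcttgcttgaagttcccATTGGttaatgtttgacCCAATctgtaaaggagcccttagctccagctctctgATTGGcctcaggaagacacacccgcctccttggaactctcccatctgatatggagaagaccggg
Elovl6: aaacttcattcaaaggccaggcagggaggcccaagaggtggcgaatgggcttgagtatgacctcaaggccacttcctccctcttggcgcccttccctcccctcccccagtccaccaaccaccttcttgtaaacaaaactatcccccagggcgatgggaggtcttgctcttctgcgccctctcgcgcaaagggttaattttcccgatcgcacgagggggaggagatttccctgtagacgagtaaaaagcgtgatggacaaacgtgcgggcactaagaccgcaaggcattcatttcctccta
The Hmgcs1 window held 4 CCAAT matches and 1 of TCACNCCAC, the Idi1 window 2 CCAAT matches and the Mvk window 5. The Elovl6 window held none of the 4 motifs searched.

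Stimulation without cytokines split the 34 genes early and was followed by higher levels of nearly all of them. At 2 h 11 were called higher than in naive cells and 15 lower, at 6 h 17 higher and 15 lower, at 24 h 24 higher and 5 lower, and at 72 h 30 higher and 2 lower. Over all genes tested the shares were 32.4% higher and 36.7% lower at 2 h, 35% higher and 37.4% lower for 6 h, 35.9% higher and 36.8% lower for 24 h and 33.2% higher and 32.2% lower for 72 h. The counts at 2 h were thus near the shares for all genes, while from 24 h on the higher genes were far above their share and the lower ones below it. The median change of the 34 genes was -0.37 at 2 h, 0.19 at 6 h, 0.86 at 24 h and 1.58 at 72 h, against -0.04, -0.05, -0.03 and -0.01 for all genes. At the other times 3 were higher and 2 lower at 0.5 h (13.5% and 9.57% of all genes), 11 higher with 12 lower at 1 h (28.5% and 28.8%), 13 with 15 at 4 h (34.8% and 38%), 18 with 10 at 12 h (34.8% and 36.9%), and 30 with 3 at 48 h (34.8% and 34.9%). All 9 comparisons share the 3 naive libraries. In bulk RNA, fewer cells that make a transcript and less of it per cell cannot be told apart.

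The earliest counts were the least firm. Without TMM scaling, a correction for differences in library make-up, the median change of all genes at 2 h was -0.22 in place of -0.04, and 9 of the 34 genes were called higher and 18 lower (25.2% and 44.3% of all genes). At 0.5 h that setting gave 2 higher and 6 lower (11.3% and 16.5%). Leaving out a course gave 3 calls at 0.5 h without course 1, 1 without course 2 and 10 without course 3, and 15 at 1 h without course 2, against 5 and 23 with all courses. Shares of all genes are not at hand for the fits that left out a course. Cyp51, Hsd17b7 and Insig2 were called at 0.5 h (0.45, 0.53 and -0.40), and each call was lost without course 1 or 2.

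**Figure D1:**
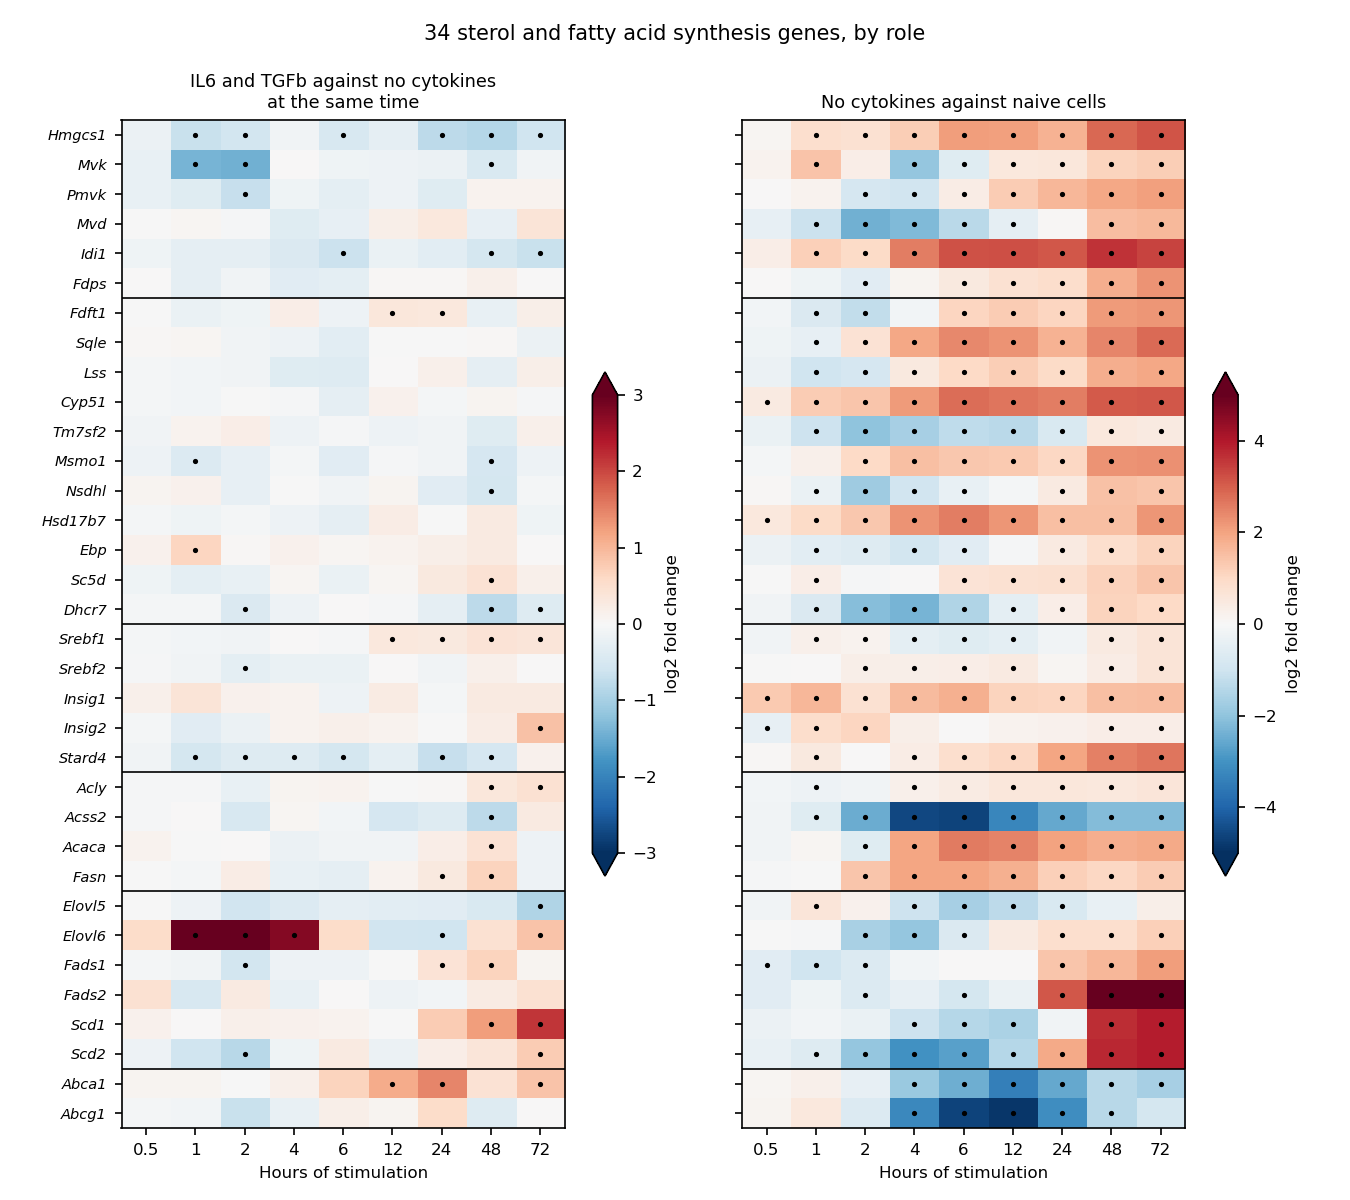
Log2 fold change of the 34 genes (rows, grouped by role) at 9 times of stimulation (columns), for IL6 and TGFb against no cytokines at the same time (left) and for no cytokines against naive cells (right), with dots at calls under an adjusted p of 0.05. On the right most rows are positive by 72 h, with 30 of 34 called higher, and on the left the strongest cells are Elovl6 at 1 and 2 h (4.16 and 5.02).

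Of the mevalonate and isoprenoid enzymes, 6 of 6 were called higher than in naive cells at 72 h without cytokines (33.2% of all genes). Their median change was 2.14, but their courses differed. Idi1, the isomerase of the isoprenoid unit, had 203, 184 and 197 CPM at 6 h in courses 1, 2 and 3, against 20.1, 19.6 and 23.2 CPM in naive cells. All stimulated libraries lay far above all naive ones. The change was 3.19 ± 0.18 (adjusted p = 5.28e-20), and at 72 h it was 3.38 ± 0.18. Hmgcs1, which makes HMG-CoA, was called higher from 1 h on (0.86 ± 0.13) and averaged 479 ± 106 CPM at 72 h, against 52.6 ± 2.82 CPM in naive cells (SD, n = 3 each).

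Mvd, the decarboxylase that makes the isoprenoid unit, was lower first. It had 3.64, 2.81 and 4.58 CPM at 2 h, against 21.9, 22.6 and 19.2 CPM in naive cells. The groups did not overlap (-2.40 ± 0.20, adjusted p = 1.87e-14). At 72 h its libraries stood at 38.8, 91.2 and 80.9 CPM, lowest in course 1 and above every naive library (1.61 ± 0.20). Mvk, the kinase that acts on mevalonate, changed direction more than once. It averaged 35.03 ± 3.83 CPM at 1 h, 2.96 ± 0.383 CPM at 4 h and 31.4 ± 9.09 CPM at 72 h, against 12.9 ± 1.49 CPM in naive cells (SD, n = 3 each). Those are changes of 1.41 ± 0.16, -1.95 ± 0.16 and 1.22 ± 0.16. Pmvk, the next kinase, was lower at 2 and 4 h (-0.86 ± 0.15 at 2 h) and higher from 6 h on (2.05 ± 0.15 at 72 h), and its call at 6 h (0.39 ± 0.15) was lost without course 2 or 3 (adjusted p = 0.128 and 0.136). Fdps, which joins isoprenoid units, averaged 15.03 ± 6.21 CPM at 72 h and 2.59 ± 0.0886 CPM in naive cells (2.23 ± 0.21). The GENCODE annotation held no pseudogene named after Fdps. Processed copies under other names may share its reads, which was not tested, so its level is uncertain.

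Of the 11 enzymes from squalene to the sterol rings, 7 were higher and 4 lower at 6 h (35% and 37.4% of all genes). The lower count was thus near its share. At 72 h 11 were higher (33.2% of all genes), with a median change of 1.93. Cyp51, which removes a methyl group from lanosterol, averaged 263 ± 17.6 CPM at 6 h and 37.96 ± 1.64 CPM in naive cells (2.77 ± 0.15). Hsd17b7, a ketoreductase, was highest at 6 h with 60.5 ± 1.24 CPM, against 9.78 ± 0.668 CPM in naive cells (2.57 ± 0.16). Sqle, which oxidises squalene, was called lower at 1 h (-0.40 ± 0.14) and higher from 2 h on (2.40 ± 0.14 at 6 h). Msmo1, a sterol demethylase, was higher from 2 h on (2.27 ± 0.12 at 72 h), and Sc5d, the desaturase of the ring, at 1 h and from 6 h on (1.38 ± 0.13 at 72 h). The call of Sc5d at 1 h (0.34 ± 0.13) was lost without TMM scaling, with DESeq2 and whichever course was left out, with values of 0.12 without the scaling, 0.17 without course 1 and 0.18 without course 3 (adjusted p = 0.426, 0.295 and 0.369).

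The other ring enzymes were lower before they were higher. Dhcr7, the reductase of the last step, had 7.27, 8.49 and 9.64 CPM at 4 h, against 40.7, 45.8 and 44.5 CPM in naive cells. No libraries overlapped (-2.31 ± 0.11, adjusted p = 3.36e-22), and at 72 h the change was 0.99 ± 0.11. Tm7sf2, another reductase, was at -2.02 ± 0.17 at 2 h, still at -0.74 ± 0.17 at 24 h and at 0.44 ± 0.17 at 72 h, where the groups overlapped. Nsdhl, a sterol dehydrogenase, was at -1.79 ± 0.15 at 2 h and 1.38 ± 0.15 at 72 h, and Ebp, an isomerase, at -0.91 ± 0.14 at 4 h and 1.10 ± 0.14 at 72 h. Fdft1, which makes squalene, was at -1.25 ± 0.11 at 2 h and 2.22 ± 0.11 at 72 h, and Lss, which closes the ring, at -0.99 ± 0.14 at 1 h and 1.93 ± 0.14 at 72 h. Some of these genes overlap others in the GENCODE annotation, Cyp51 with Akap9 and Fdft1 with Ctsb on the opposite strand and Tm7sf2 with Vps51 on the same strand. The sources used here do not give whether counting used strand, so part of their reads is uncertain.

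**Figure D2:**
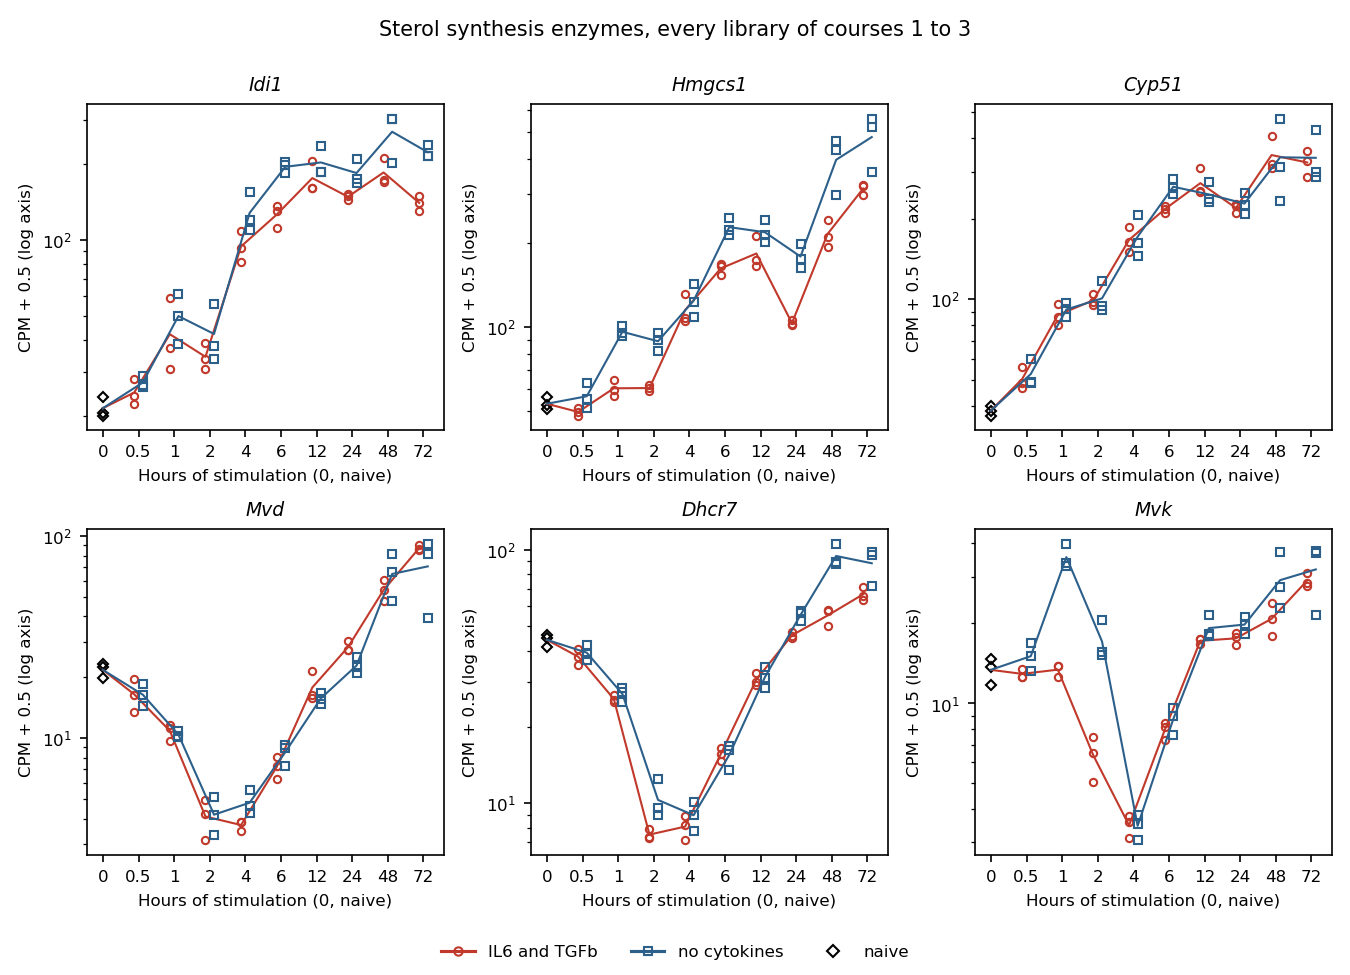
CPM + 0.5 on a log axis of 6 sterol synthesis enzymes in every library of courses 1 to 3 at 0 h (naive) and 9 times of stimulation, for IL6 and TGFb and for no cytokines (lines join the means of 3 libraries). Idi1, Hmgcs1 and Cyp51 lie above naive cells from 6 h on, Mvd and Dhcr7 reach a low at 2 to 4 h (3.68 CPM for Mvd at 2 h and 8.47 CPM for Dhcr7 at 4 h without cytokines), and Mvk without cytokines is high at 1 h (35.03 CPM).

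The transcripts of the transcription factors changed less than those of most enzymes. Srebf1 had 218, 262 and 238 CPM at 72 h without cytokines, against 147, 159.9 and 150.3 CPM in naive cells. The groups did not overlap (0.65 ± 0.08), and at 6 h the gene was lower than in naive cells (99.1 ± 2.91 CPM, -0.62 ± 0.08). Srebf2 had 684, 584 and 575 CPM at 72 h, against 407, 401 and 375 CPM in naive cells, again without overlap (0.64 ± 0.09). Its calls at 2 and 4 h (0.29 and 0.30) were lost without TMM scaling (adjusted p = 0.692 and 0.0659) and without course 3 (0.0912 and 0.167). Srebf1 overlaps Rai1 on the opposite strand.

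Insig1, whose protein holds the factors in the endoplasmic reticulum and whose gene is itself their target, had the largest change of the 34 at 0.5 h. It had 139, 124 and 118 CPM, against 52.9, 50.2 and 49.1 CPM in naive cells. Every library at 0.5 h lay above every naive one (1.31 ± 0.14, adjusted p = 5.85e-10), and the call held when any course was left out. Insig1 averaged 163 ± 22 CPM at 1 h, 87.01 ± 16.4 CPM at 2 h, 174 ± 8.45 CPM at 6 h and 149 ± 4.74 CPM at 72 h. Insig2 was highest at 2 h, with 29.98 ± 2.03 CPM and 13.9 ± 0.668 CPM in naive cells (1.08 ± 0.15). Stard4, a carrier of sterol between membranes, averaged 201 ± 21.2 CPM at 72 h and 30.8 ± 0.409 CPM in naive cells (2.68 ± 0.12).

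Of the 4 enzymes that supply and build fatty acids, 3 were higher and 1 lower at 6, 24 and 72 h. The shares of all genes were 35% and 37.4% at 6 h, 35.9% and 36.8% at 24 h, 33.2% and 32.2% at 72 h. The lower count was thus not above its share. Fasn, fatty acid synthase, had 1304, 1359 and 1301 CPM at 6 h, against 335, 316 and 354 CPM in naive cells. No libraries overlapped (1.98 ± 0.11). Acaca, which makes malonyl-CoA, was called lower at 2 h (-0.61 ± 0.12) and averaged 303 ± 21.4 CPM at 6 h, against 50.2 ± 6.73 CPM in naive cells (2.59 ± 0.12). Acly, which makes acetyl-CoA from citrate, averaged 503 ± 66.6 CPM at 72 h and 331 ± 5.61 CPM in naive cells (0.59 ± 0.08). Acss2 makes acetyl-CoA from acetate and moved against these. It had 2.72, 3.43 and 2.49 CPM at 6 h, against 86.3, 82.4 and 79.6 CPM in naive cells. The groups stood far apart (-4.63 ± 0.23, adjusted p = 1.13e-21), and at 72 h its libraries, at 9.12, 27.9 and 22.5 CPM, were still below every naive one (-2.17 ± 0.23). Acss2 overlaps Ggt7 and Gss on the opposite strand.

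The desaturases were called higher only from 24 h on (Fads1, Fads2 and Scd2) or 48 h on (Scd1), and Fads2, Scd1 and Scd2 gave the 3 largest changes of the 34 genes at 72 h. Fads2, which puts double bonds into polyunsaturated fatty acids, had 87.6, 84.9 and 60.3 CPM at 72 h, against 0.402, 1.51 and 0.185 CPM in naive cells, where 1 read was worth 0.0212 to 0.0627 CPM over the libraries. The groups were far apart (6.16 ± 0.29, adjusted p = 2.82e-22). Scd1 and Scd2, which make monounsaturated fatty acids, were lower first. Scd2 had 4.80, 13.2 and 14.6 CPM at 4 h and 1064, 1584 and 1180.4 CPM at 72 h, against 75.1, 99.9 and 77.1 CPM in naive cells. The libraries at 4 h lay below all naive ones (-3.02 ± 0.26) and those at 72 h above (3.91 ± 0.26). Scd1 had 43.6, 60.2 and 20.3 CPM at 72 h, against 1.45, 2.59 and 2.07 CPM in naive cells (3.94 ± 0.34), after a low at 12 h (-1.57 ± 0.34). Fads1, which works beside Fads2, was lower at 0.5 to 2 h (-1.01 ± 0.15 at 1 h) and higher from 24 h on (2.10 ± 0.15 at 72 h), though the call at 0.5 h was lost without course 2 (adjusted p = 0.104).

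Of the elongases, Elovl6, which lengthens saturated chains, averaged 5.55 ± 0.801 CPM at 4 h without cytokines and 22.5 ± 3.46 CPM in naive cells (-1.93 ± 0.21), and was higher from 24 h on (1.18 ± 0.21 at 72 h). Elovl5, which lengthens polyunsaturated chains, was called higher at 1 h (0.59). That call was lost without TMM scaling and without course 2 or 3 (adjusted p = 0.0691, 0.127 and 0.0621). Elovl5 was lower from 4 to 24 h, with 54.04 ± 1.27 CPM at 6 h and 172 ± 4.15 CPM in naive cells (-1.67 ± 0.20). At 72 h its libraries were uneven, with 106, 291 and 309.7 CPM in courses 1, 2 and 3.

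The efflux pump Abcg1 gave the lowest change of any of the 34 genes. It had 3.74, 2.74 and 4.50 CPM at 12 h without cytokines, against 116, 128 and 116 CPM in naive cells. No libraries overlapped (-4.88 ± 0.45, adjusted p = 5.08e-13). At 72 h they stood at 15.5, 133 and 126 CPM, with course 1 far below the others, and Abcg1 was not called (-0.90 ± 0.45). The call at 48 h (-1.41 ± 0.45) was lost without course 1 (-0.59, adjusted p = 0.0608). Abca1 had 1.27, 2.70 and 2.97 CPM at 12 h, against 32.4, 27.6 and 26.5 CPM in naive cells. These groups did not overlap either (-3.44 ± 0.21), and Abca1 was still lower at 72 h (-1.66 ± 0.21). Macrophages also make both pumps. The summed myeloid markers stood at 1.98 to 2.56 CPM at 12 h without cytokines, against 30.6 to 40.9 CPM in naive cells, with 10 of 10 tested markers lower, and their part in the result was not tested.

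**Figure D3:**
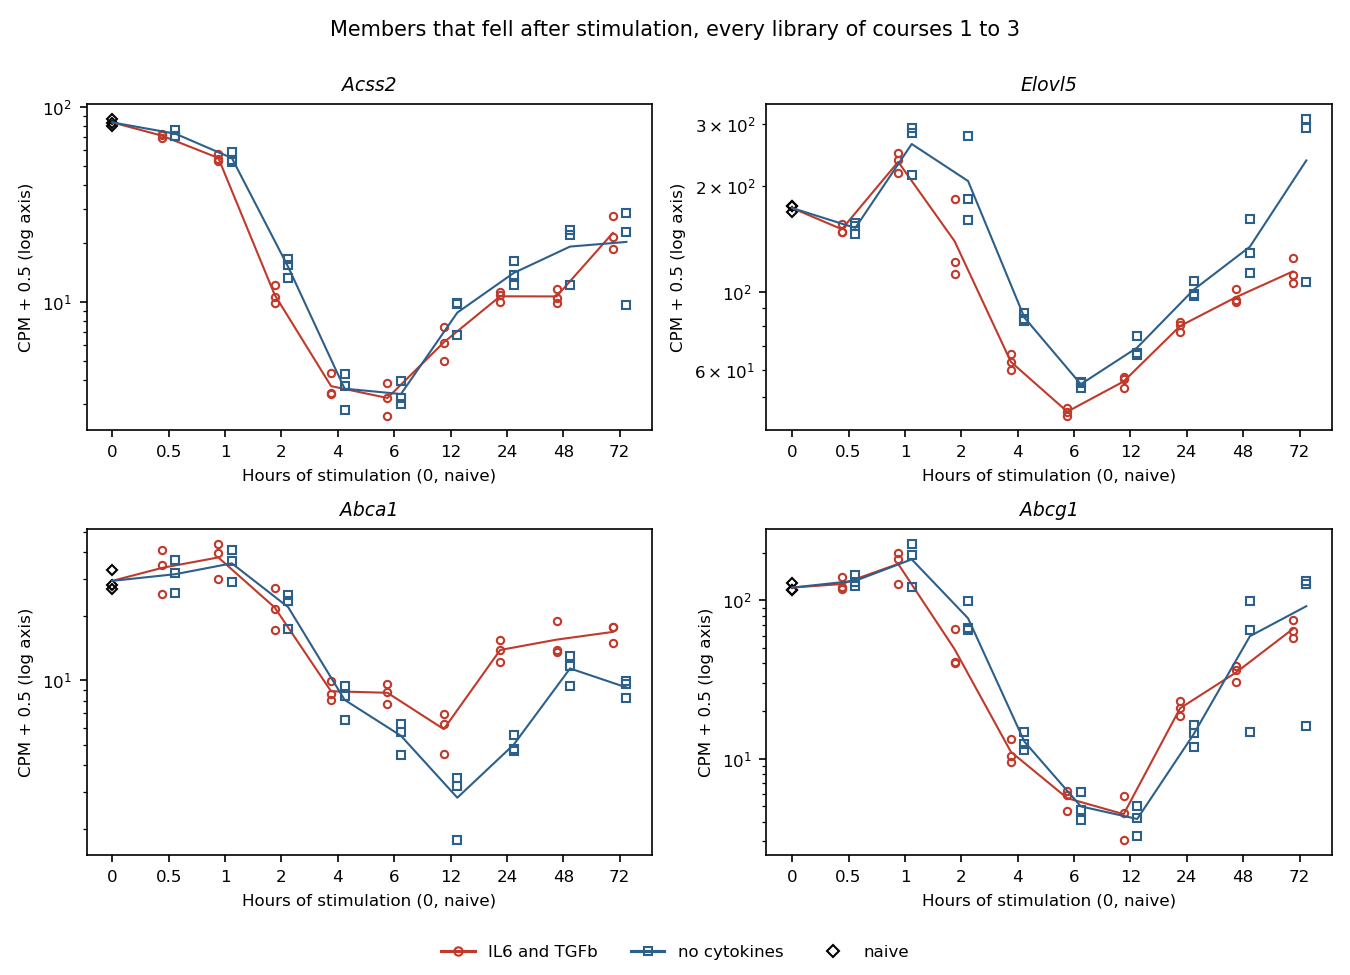
CPM + 0.5 on a log axis of Acss2, Elovl5, Abca1 and Abcg1 in every library of courses 1 to 3, for IL6 and TGFb and for no cytokines (lines join the means of 3 libraries). Without cytokines the means are lowest at 6 h for Acss2 and Elovl5 and at 12 h for Abca1 and Abcg1 (2.88, 54.04, 2.32 and 3.66 CPM).

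IL6 and TGFb were set against no cytokines at the same time. Elovl6 gave the largest differences of the 34 genes, and 0 to 9 genes were called at any time up to 24 h, with 15 called for 48 h and 11 for 72 h. At 1 h 2 were higher and 4 lower (4.57% and 3.39% of all genes), and at 2 h 1 was higher and 8 lower (5.59% and 6.84%). At 0.5 h limma called 0 of 34 (0.476% and 0.136% of all genes), with 1 gene at an unadjusted p under 0.05, and edgeR and DESeq2 called 0 and 0. At 4 h 1 was higher and 1 lower (2.73% and 1.67%), at 6 h 0 and 3 (2.85% and 1.76%), and at 12 h 3 and 0 (5.41% and 4.11%). At 24 h 5 were higher and 3 lower (13.5% and 12.6%), at 48 h 7 and 8 (27.6% and 25.4%), and at 72 h 7 and 4 (22.7% and 23.6%). At 48 and 72 h the members' counts were thus near or below the shares for all genes. At 1, 2 and 6 h the lower counts were small but above their shares.

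These counts moved with the fit. At 2 h 5 genes were called without course 2 and 3 without course 3, and at 48 h 24 without course 1, against 9 and 15 with all courses. Shares of all genes are not at hand for the fits that left out a course, so these counts cannot be set against them. Without TMM scaling, which put the median change of all genes at -0.15 in place of -0.03 at 48 h, the split was 1 higher with 0 lower at 4 h (3.02% and 1.48% of all genes), 1 higher with 2 lower at 6 h (3.27% and 1.54%), 3 higher with 1 lower at 12 h (5.48% and 4.34%), 5 higher with 6 lower at 24 h (12.6% and 14.7%) and 6 higher with 12 lower at 48 h (21% and 34.2%). In a fit of the 6 libraries compared with the course as a block, more genes were called from 1 to 24 h and fewer after it. The numbers called were 14 for 2 h, 8 for 4 h, 14 for 6 h, 13 for 12 h, 22 for 24 h, 6 for 48 h and 1 for 72 h. Shares of all genes are not at hand for that fit, so these counts do not show whether the members stood out. The 1 at 72 h was Scd1, and the calls of Hmgcs1, Idi1, Dhcr7, Srebf1, Insig2, Acly, Elovl5, Elovl6, Scd2 and Abca1 at that time were lost (adjusted p = 0.0662 to 0.246). At 48 h Mvk, Idi1, Msmo1, Nsdhl, Sc5d, Acly, Acss2, Acaca and Scd1 lost theirs (adjusted p = 0.0553 to 0.172).

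Elovl6 gave the largest response of the 34 genes. It had 427, 401 and 342 CPM at 1 h with IL6 and TGFb, against 19.6, 20.97 and 23.2 CPM without cytokines. At 2 h it had 329, 252 and 169.7 CPM with IL6 and TGFb, against 7.67, 6.76 and 6.43 CPM without. Every library with the cytokines lay far above every library without. The difference was 4.16 ± 0.21 at 1 h (adjusted p = 2.23e-19), 5.02 ± 0.21 at 2 h (adjusted p = 4.16e-22) and 2.76 ± 0.21 at 4 h. At 0.5 h the libraries with IL6 and TGFb stood at 48, 25.9 and 29.05 CPM, against 18.4, 23.95 and 25.04 CPM without, and the gene was not called (0.56 ± 0.21), nor at 6 h (0.55 ± 0.21). At 24 h it was lower with IL6 and TGFb (-0.60 ± 0.21), a call lost without the filter on low values and without course 2 or 3 (adjusted p = 0.0877, 0.3 and 0.115). At 72 h it had 102, 86.7 and 91.9 CPM, against 29.8, 67.7 and 66.7 CPM without, again higher in every library (0.86 ± 0.21, and 0.46 without course 1).

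Among the genes that were lower early was Mvk. It had 13.4, 13.3 and 12.1 CPM at 1 h with IL6 and TGFb, against 32.3, 39.4 and 33.4 CPM without. The groups did not overlap (-1.40 ± 0.16, adjusted p = 4.49e-09). The difference was -1.43 ± 0.16 at 2 h, and at 4 h the means were 2.98 ± 0.335 CPM with IL6 and TGFb and 2.96 ± 0.383 CPM without (SD, n = 3 each). The rise of Mvk at 1 h described above was therefore seen without cytokines, while with IL6 and TGFb the mean was 12.9 ± 0.741 CPM, against 12.9 ± 1.49 CPM in naive cells. Hmgcs1 was lower at 1, 2, 6, 24, 48 and 72 h, with differences of -0.49 to -0.86. It had 101, 102 and 105 CPM at 24 h, against 162, 198 and 175 CPM without cytokines. No libraries overlapped (-0.79 ± 0.13), while the call at 2 h was lost without course 3 (adjusted p = 0.0671) and that at 6 h whichever course was left out (0.193, 0.071 and 0.146).

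Stard4 was also lower at several times, 1 to 6 h and 24 and 48 h. At 24 h it averaged 75.8 ± 2.74 CPM with IL6 and TGFb and 123 ± 5.40 CPM without (-0.69 ± 0.12), and at 72 h it was not called (0.14 ± 0.12). Its calls at 1, 2 and 6 h were lost without course 2 (adjusted p = 0.17, 0.125 and 0.0801) and that at 2 h also without course 3 (0.422). Its call at 4 h was lost with edgeR, without TMM scaling, without the filter and without each course (adjusted p = 0.0523 to 0.615). Idi1 was lower at 6, 48 and 72 h, with 130.3, 139.97 and 149 CPM at 72 h, against 237, 214 and 215 CPM without. Those groups did not overlap (-0.67 ± 0.18), but the call at 6 h (-0.63 ± 0.18) was lost without each course and without TMM scaling (adjusted p = 0.0521 to 0.251). The call at 48 h (-0.52 ± 0.18) was lost without course 1 or 3 (-0.33 and -0.35, adjusted p = 0.151 and 0.125) and stood at -0.84 without course 2. Dhcr7 was lower at 2, 48 and 72 h, with 57.2, 56.98 and 49.5 CPM at 48 h, against 89.2, 87.8 and 105 CPM without (-0.78 ± 0.11). Its call at 2 h was lost without course 2 or 3 (adjusted p = 0.109 and 0.0825) and that at 72 h without course 2 (0.242).

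Other genes were called lower at 1 or 2 times each. At 48 h Mvk, Msmo1, Nsdhl and Acss2 were lower (-0.46 ± 0.16, -0.50 ± 0.12, -0.53 ± 0.15 and -0.80 ± 0.23), and all 4 calls were lost without course 3 (adjusted p = 0.549, 0.0569, 0.247 and 0.168). Without that course Mvk stood at -0.16 and Nsdhl at -0.24. The call of Msmo1 was also lost without course 1 (-0.33, adjusted p = 0.0508) and that of Acss2 without course 2 (-0.64, adjusted p = 0.0738), while Msmo1 stood at -0.78 without course 2. Msmo1 was also lower at 1 h (-0.42 ± 0.12), where Ebp was higher (0.65 ± 0.14). The call of Msmo1 at 1 h was lost whichever course was left out and without the filter (adjusted p = 0.0562 to 0.25), and that of Ebp without course 2 (0.0565). At 2 h Pmvk, Srebf2, Fads1 and Scd2 were lower (-0.70 ± 0.15, -0.29 ± 0.09, -0.54 ± 0.15 and -0.83 ± 0.26). The call of Scd2 was lost with edgeR and DESeq2 (adjusted p = 0.068 and 0.0622) and without course 1 or 3 (0.283 and 0.223). Its difference was -0.30 without course 1 and -1.34 without course 2. The call of Srebf2 was lost with DESeq2 and without course 2 or 3 (adjusted p = 0.0509, 0.309 and 0.199), and that of Fads1 without course 2 (0.178). Higher calls of sterol enzymes late were Fdft1 at 12 and 24 h (0.35 ± 0.11 and 0.32 ± 0.11) and Sc5d at 48 h (0.44 ± 0.13), and the 3 were lost when a course was left out (adjusted p = 0.343, 0.12 and 0.374 without course 2). Fdft1 at 12 h was also lost without course 1 or 3 and without the filter (adjusted p = 0.0662 to 0.125) and at 24 h without course 1 (0.169). Sc5d stood at 0.68 without course 1 and 0.20 without course 2, and was lost without TMM scaling (adjusted p = 0.0504).

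Of the 10 enzymes of the fatty acid branch 5 were higher and 1 lower with IL6 and TGFb at 48 h, and 4 higher and 1 lower at 72 h (shares of all genes 27.6% and 25.4% at 48 h, and 22.7% and 23.6% at 72 h). Of the 17 sterol enzymes 1 was higher and 6 lower at 48 h, and 0 and 3 at 72 h. The lower count of the sterol enzymes was somewhat above its share at 48 h and below it at 72 h, and the difference between both branches was not tested. Scd1 had 181, 168 and 155 CPM at 72 h with IL6 and TGFb, against 43.6, 60.2 and 20.3 CPM without. The groups were far apart (2.14 ± 0.34, adjusted p = 1.23e-06). Scd1 was also called higher at 48 h (1.25), a call lost without course 2 (0.72, adjusted p = 0.179). Scd2 had 2168, 2145 and 2122 CPM, against 1064, 1584 and 1180.4 CPM without. Those did not overlap (0.77 ± 0.26), yet the call was lost without course 3 (adjusted p = 0.136).

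Fasn was higher at 24 and 48 h (0.30 ± 0.11 and 0.66 ± 0.11), Acly at 48 and 72 h (0.33 ± 0.08 and 0.45 ± 0.08), Acaca at 48 h (0.43 ± 0.12) and Fads1 at 24 and 48 h (0.42 ± 0.15 and 0.68 ± 0.15). Without course 2 the calls of Fasn and Fads1 at 24 h and of Acly and Acaca at 48 h were lost (adjusted p = 0.0773, 0.247, 0.178 and 0.102), with Acly at 0.18 and Acaca at 0.27. At 24 h Fasn was also lost without course 1 or 3 and without the filter (adjusted p = 0.0538 to 0.227), and Fads1 without course 3 (0.0689). Fads2 averaged 105 ± 1.93 CPM with IL6 and TGFb and 77.6 ± 15 CPM without at 72 h, and was not called (0.46 ± 0.29). Elovl5 had 124, 105 and 111 CPM at 72 h with IL6 and TGFb, against 106, 291 and 309.7 CPM without. The groups overlapped through course 1, and the lower call (-0.90 ± 0.20) was lost without course 2 or 3 (adjusted p = 0.127 and 0.0799) and stood at -1.41 without course 1.

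**Figure D4:**
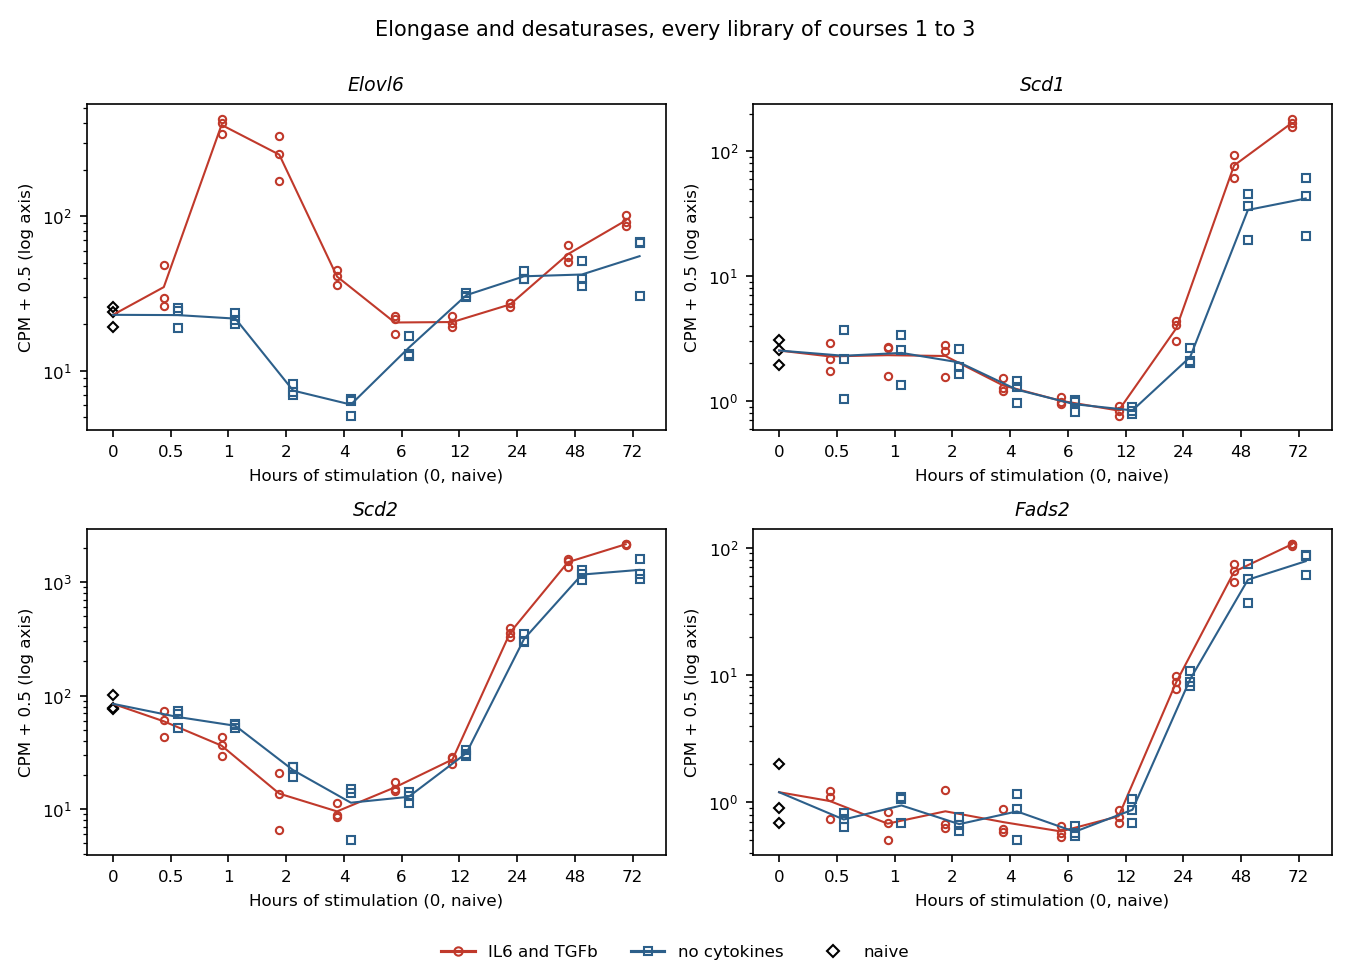
CPM + 0.5 on a log axis of Elovl6, Scd1, Scd2 and Fads2 in every library of courses 1 to 3, for IL6 and TGFb and for no cytokines (lines join the means of 3 libraries). Elovl6 averages 390.2 CPM at 1 h with IL6 and TGFb and 21.3 CPM without, and the 3 desaturases climb from 24 to 72 h.

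Of the sensing and efflux genes, Srebf1 was higher with IL6 and TGFb from 12 h on. It had 317, 314 and 296 CPM at 72 h, against 218, 262 and 238 CPM without. The groups did not overlap (0.37 ± 0.08), and the calls at 12 and 24 h were lost without course 2 (adjusted p = 0.287 and 0.155). Srebf2 had 610.4, 624 and 608 CPM at 72 h, against 684, 584 and 575 CPM without, with overlap and no call (0.01 ± 0.09). Insig1 was called at none of the 9 times, with 179, 173 and 183 CPM at 72 h, against 148, 145 and 154 CPM without (0.26 ± 0.14). Insig2 was higher at 72 h, with 34.4, 34.6 and 31.3 CPM, against 25.1, 14.5 and 15.5 CPM without, and no libraries overlapped (0.89 ± 0.15).

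Abca1 had 13.4, 15.04 and 11.7 CPM at 24 h with IL6 and TGFb, against 4.16, 5.05 and 4.28 CPM without. Those groups did not overlap (1.47 ± 0.21, adjusted p = 2.65e-07), and Abca1 was also higher at 12 and 72 h (1.11 ± 0.21 and 0.87 ± 0.21). Abcg1 was called at none of the 9 times, with 0.55 ± 0.45 at 24 h. At 24 h the summed myeloid markers stood at 1.87 to 2.96 CPM with IL6 and TGFb and 1.88 to 2.99 CPM without. Of the 10 tested markers 0 were called. At 72 h the sums were 15.3 to 24.3 CPM and 2.83 to 8.26 CPM, with 1 marker higher (Ccr2, which T cells also make) and 4 lower. The part of the markers in the result was not tested at 24 or 72 h.

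The time of the highest mean also differed among the genes. Without cytokines 18 of the 34 were highest at 72 h and 6 at 48 h, among them most enzymes of sterol synthesis and all 4 desaturases. Hsd17b7, Insig1, Acaca and Fasn were highest at 6 h, Mvk, Elovl5, Abca1 and Abcg1 at 1 h, Insig2 at 2 h and Acss2 at 0.5 h. The Acss2 mean at 0.5 h, 72.35 CPM, was still below every naive library (86.3, 82.4 and 79.6 CPM). With IL6 and TGFb 20 were highest at 72 h and 5 at 48 h, and Elovl6 was then among the 5 that were highest at 1 h, with Insig1, Elovl5, Abca1 and Abcg1. These are orders of means over 3 libraries, with no test of the order.

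The effect of IL6 and TGFb at 72 h was set against that at 2 h in the same model. It was more positive at 72 h for 10 of the 34 genes and more negative for 1 (19.5% and 15.7% of all genes). Elovl6 was the 1 in the negative direction (-4.17 ± 0.30), and Scd1, Scd2 and Mvk had the 3 largest positive differences (1.99 ± 0.48, 1.60 ± 0.36 and 1.34 ± 0.23). Scd2 stood at 1.00 without course 1. Without course 3 the call of Scd1 was lost (adjusted p = 0.0906) and 7 of the 34 genes were called, with no share of all genes at hand for that fit.

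Other genes of the same pathways were counted in the same way. In cells without cytokines 15 of 27 other sterol and isoprenoid genes were higher and 9 lower than in naive cells at 24 h, and 13 and 6 at 72 h. Over all genes the shares were 35.9% higher and 36.8% lower at 24 h, and 33.2% and 32.2% at 72 h, so that the lower count at 24 h was near its share. Tmem97, a membrane protein bound to cholesterol handling, averaged 46 CPM at 24 h and 4.51 CPM in naive cells (3.22 ± 0.17). Npc2, which moves cholesterol out of lysosomes, was lower at 24 h (-1.66 ± 0.13). Of 30 other fatty acid genes tested, out of 33 listed, 19 were higher and 9 lower at 24 h, and 18 and 7 at 72 h. Fabp5, a fatty acid carrier, Slc25a1, which exports citrate from mitochondria, and Mid1ip1, which activates acetyl-CoA carboxylase, were higher at 24 h (3.64 ± 0.16, 2.11 ± 0.12 and 1.93 ± 0.12). Cpt1a, which admits fatty acids to mitochondria for oxidation, was lower (-2.03 ± 0.17), as was Acacb, the mitochondrial form of the carboxylase (-2.17 ± 0.27).

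Of 11 LXR receptors and target genes, 3 of them among the 34 (Srebf1, Abca1 and Abcg1), 2 were higher and 7 lower at 24 h without cytokines (35.9% and 36.8% of all genes). Mylip, a ligase that marks lipoprotein receptors for breakdown, averaged 8.41 CPM at 24 h and 81.7 CPM in naive cells (-3.21 ± 0.27). Rxra, the partner receptor, was higher, with 187 CPM at 24 h and 18.3 CPM in naive cells (3.32 ± 0.19). With IL6 and TGFb, 5 of the 11 were higher and 2 lower than without cytokines at 24 h (13.5% and 12.6% of all genes), among them Pltp, a phospholipid carrier, with 8.02 CPM and 0.191 CPM (3.62 ± 0.19), and Rxra, with 49.7 CPM and 187 CPM (-1.90 ± 0.19). In the same comparison 3 of the 27 other sterol genes were higher with 7 lower at 24 h, and 5 higher with 4 lower by 72 h (22.7% and 23.6% of all genes), of which the higher counts and the lower one at 72 h were near or below the shares. Of the 30 other fatty acid genes 6 were higher with 5 lower at 24 h, and 13 higher with 3 lower by 72 h. Dgat1, which makes triglyceride, averaged 71 CPM at 72 h with IL6 and TGFb and 16.8 CPM without (2.02 ± 0.23), and Acsl4, which activates arachidonate, 491 CPM and 147 CPM (1.74 ± 0.11).

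Cultures with IL1b, IL21 or both added to IL6 and TGFb were set against naive cells of their own courses. As a mean of the 3 cocktails, 11 of the 34 genes were higher and 17 lower at 2 h (35.7% and 41.2% of all genes), 26 and 5 at 24 h (42.2% and 40.7%), and 30 and 4 at 72 h (44.7% and 39.9%). For IL6 and TGFb alone, in courses 1 to 3, 9 were higher and 17 lower than in naive cells at 2 h (33.6% and 37%), 21 and 5 at 24 h (37.4% and 38.3%), and 30 and 3 at 72 h (37.7% and 37.1%). These last 3 share their naive libraries with the comparison of no cytokines. As there, the higher counts at 72 h were far above the shares of all genes. Without TMM scaling the splits at 2 h were 8 higher and 21 lower for the cocktails (27.2% and 51.4% of all genes) and 9 and 22 for IL6 and TGFb (26.2% and 44.6%).

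Elovl6 was high early in the cocktails as well. It averaged 123 ± 51.9 CPM at 1 h and 317 ± 51.7 CPM at 2 h with IL1b, 141 ± 51.6 and 410.4 ± 68.9 CPM with IL21, and 189 ± 119 and 353 ± 53.3 CPM with both, against 19.3 ± 1.19 CPM in naive cells (SD, n = 3 each). The mean change was 4.17 ± 0.20 at 2 h (adjusted p = 2.2e-29) and 0.42 ± 0.20 at 24 h. The desaturases were high late. Scd2 averaged 2104 ± 20 CPM at 72 h with IL1b, 2101 ± 159 CPM with IL21 and 2195 ± 127 CPM with both, against 75.9 ± 3.30 CPM in naive cells (4.80 ± 0.20 as a mean). Scd1 averaged 170.1 ± 21.4, 141 ± 46.5 and 159 ± 29.4 CPM in the same cocktails, against 2.03 ± 0.964 CPM (5.99 ± 0.26), and Fads2 87.7 ± 9.53, 85.4 ± 23.8 and 88.6 ± 12.2 CPM, against 0.145 ± 0.128 CPM (7.09 ± 0.15).

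Of the 17 sterol enzymes 5 were higher and 10 lower than in naive cells at 2 h as a mean of the cocktails. At 72 h 17 were higher. The shares of all genes were 35.7% higher and 41.2% lower at 2 h, and 44.7% higher at 72 h. Mvd averaged 3.80 ± 0.767, 4.26 ± 1.01 and 3.80 ± 0.575 CPM at 2 h with IL1b, with IL21 and with both, against 20.2 ± 2.07 CPM in naive cells (-2.23 ± 0.11), and was at 2.16 ± 0.11 at 72 h. Dhcr7 was at -2.22 ± 0.11 at 2 h and 0.54 ± 0.11 at 72 h. Acss2 was lower at both times (-2.49 ± 0.11 and -1.99 ± 0.11), and Idi1, Cyp51, Stard4 and Hmgcs1 were higher at 72 h (2.83 ± 0.10, 3.15 ± 0.10, 2.90 ± 0.07 and 2.60 ± 0.10). The cocktails and IL6 with TGFb alone were grown in different courses, so an effect of the cocktail and one of the course cannot be told apart and no test was made between them.

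**Figure D5:**
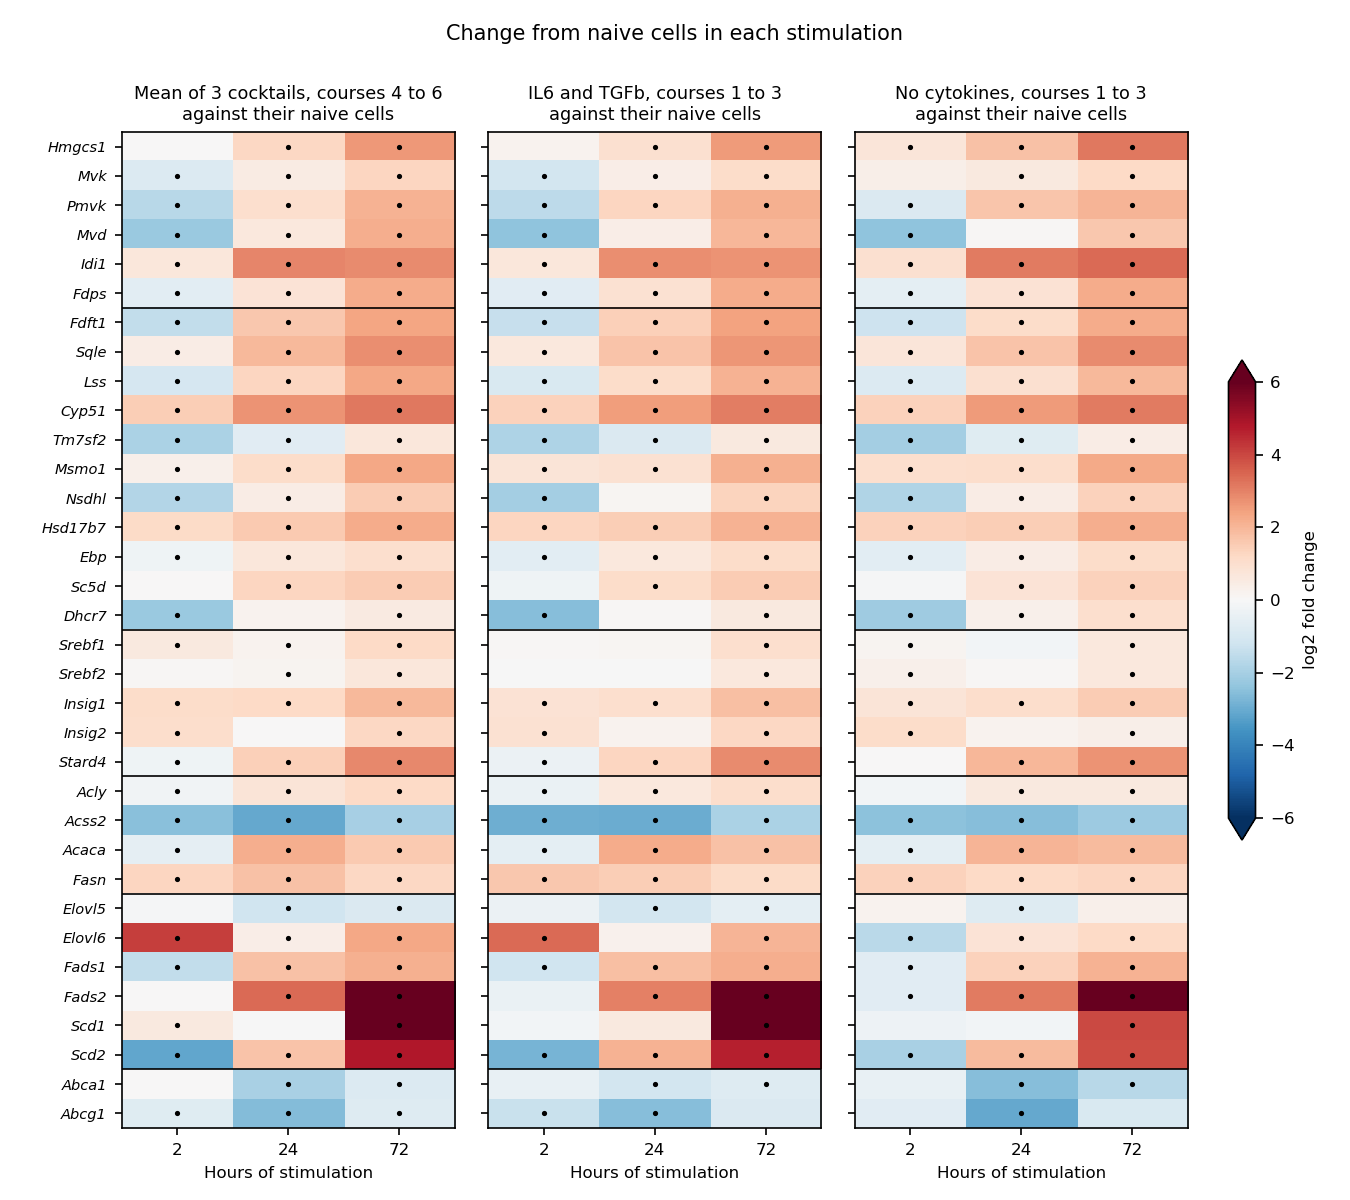
Log2 fold change from naive cells of the same courses for the 34 genes (rows, grouped by role) at 2, 24 and 72 h, for the mean of the 3 cocktails (left), IL6 and TGFb (middle) and no cytokines (right), with dots at calls under an adjusted p of 0.05. Fads2 at 72 h is strongly positive in each panel (7.09, 6.62 and 6.16), and Elovl6 at 2 h is positive in the left and middle panels and negative on the right (4.17, 3.40 and -1.62).

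Among the cocktails themselves 1 of the 34 genes was called in 1 of 9 comparisons, which set each pair side by side in windows of 0.5 to 2 h, of 4 to 12 h and of 24 to 72 h, each window taken as a mean. Cultures with IL1b against those with IL21 had 0 genes called in the first window (0.0135% higher and 0.0471% lower of all genes), 0 in the second (0.121% and 0.108%) and 1 lower in the third (4.55% and 6.88%). Cultures with both against those with IL21 had 0 in each (0% and 0%, 0.00673% and 0%, and 3.14% and 3.64%), as had cultures with both against those with IL1b (0.424% and 0.0471%, 0.0875% and 0.0471%, and 0% and 0%). In the 8 comparisons with 0 calls by limma, 0 to 5 of the 34 genes had an unadjusted p under 0.05, and edgeR and DESeq2 also called 0. The 1 gene was Sc5d, with means of 74.9 CPM with IL1b and 84.4 CPM with IL21 over 24 to 72 h (-0.17 ± 0.05, adjusted p = 0.0199). Its call was lost without the filter on low values (adjusted p = 0.0719) and without course 4, 5 or 6 (0.0502, 0.121 and 0.146).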

How the data were processed

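RNA sequencing of 141 libraries, 47 groups of 3, was deposited by the authors as CPM per gene, in columns that each sum to 1e+06. Per the submitters' processing notes TopHat and HTSeq were used and mm9 and GRCh37 are named, without versions or roles. Mitochondrially encoded genes (37) hold 0 reads. All values (100%) were whole multiples of 1 read within 0.001, so reads were recovered for edgeR and DESeq2, and depth was 16 to 47.1 M reads per library. Precision is limited by that depth and by 3 libraries per group.

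The 34 members and all lists were chosen with earlier results of these data known. A gene entered the fit when 3 or more libraries of a set reached 1 CPM. CPM were scaled by TMM factors, and limma-trend was fitted to log2(CPM + 0.5) over all groups of courses 1 to 3 (38 residual degrees of freedom) and of courses 4 to 6 (56), with 1 mean per group, two-sided tests and Benjamini-Hochberg adjustment over all genes. Groups and courses came from the labels, which call the courses biological replicates. Fold changes are on the log2(CPM + 0.5) scale. Named members were, per role, up to 3 called genes per direction with the largest change and at least 5 CPM in 1 group. Not every call of every member is given by value. Of the genes outside the 34, only some that the same rule picks are named.

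Alternatives were a pseudocount of 0.1, no filter, no TMM scaling, edgeR's quasi-likelihood test and DESeq2 on recovered reads, a replicate block, leaving out each course, and fitting only the libraries compared, without and with the block. Data were simulated only for IL6 and TGFb against no cytokines at 24 h (12652 genes). There limma recovered 87% of genes changed 2-fold and 100% of those changed 4-fold, with 5.08% of calls false. The same spread was set for every gene, was not estimated from these libraries and held no course effect. These percentages hold for that setting only. Times with a wider spread were not simulated. At 72 h without cytokines the library of course 1 stood 0.63 log2 units from its group's mean, against 0.173 at 24 h. The 87%, 100% and 5.08% therefore do not give the recovery or the share of false calls in the real libraries. R 4.3.3, limma 3.58.1, edgeR 4.0.16 and DESeq2 1.42.0 were used. Promoter windows came from RefSeq (GRCm38.p6), another build than the authors' mm9, and were matched by symbol only.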

Additional observations from a re-analysis of the deposited data

Results flagged for a closer look

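The 11 members below are listed because the difference between IL6 with TGFb and no cytokines at 72 h was itself different from that at 2 h, by an interaction term of the limma fit with Benjamini-Hochberg adjustment over all genes. Each value is the effect at 72 h minus the effect at 2 h on the log2 scale. Elovl6 differed by -4.17 (adjusted p = 2.65e-15), from the effects of 0.86 at 72 h and 5.02 at 2 h. Scd1 differed by 1.99 (0.00102), Scd2 by 1.60 (0.000483) and Mvk by 1.34 (6.39e-06). Smaller differences were those of Insig2 at 1.06 (6.12e-05), Abca1 at 0.88 (0.0182), Pmvk at 0.81 (0.00246), Acly at 0.68 (6.68e-06), Fads1 at 0.62 (0.017), Stard4 at 0.53 (0.00971) and Srebf1 at 0.49 (0.00088). Those of Abca1 and Fads1 were not called without course 2, nor those of Abca1, Pmvk, Scd1 and Stard4 without course 3, nor that of Fads1 without course 1. The adjusted p rest on the pooled spread, while libraries at 72 h without cytokines differed more. Fitting only the libraries compared at 72 h, with the course as a block, lost the 72 h calls of Elovl6, Scd2, Insig2, Abca1, Acly and Srebf1.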

How the results depend on the processing

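Of 348 recomputed counts of called members, 311 were within 1.5 times the reported count and 37 were not, and of 3726 recomputed member values 178 lost their call and 0 reversed. The cause was not tested. For no cytokines against naive cells the count at 0.5 h (5 as reported) was 3 without the filter on low values, 8 without TMM scaling and 1 to 10 without 1 course, and at 1 h (23) it was 15 to 20. For IL6 and TGFb against no cytokines at 4 h (2) it was 1 without the filter, 1 without TMM scaling, 1 with edgeR and 1 to 2 without 1 course. Leaving out a course gave 3 to 5 at 1 h (6), 3 to 9 at 2 h (9), 0 to 2 at 6 h (3), 1 to 4 at 12 h (3), 3 to 8 at 24 h (8), 10 to 24 at 48 h (15) and 7 to 13 for the effect at 72 h minus that at 2 h (11). The 24 at 48 h came without course 1, and the 0 at 6 h without course 2. For IL1b against IL21 at 24 to 72 h (1) the count was 0 without the filter and 0 to 0 without 1 course. Shares of all genes are not at hand for the fits without the filter or without 1 course. Their counts show only how far the number of calls moved.

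Fitting only the 6 libraries compared gave 5 calls at 2 h, 12 at 6 h, 6 at 12 h, 19 at 24 h and 9 at 48 h for IL6 and TGFb. With the course as a replicate block as well it gave 14 at 2 h, 8 at 4 h, 14 at 6 h, 13 at 12 h, 22 at 24 h, 6 at 48 h and 1 at 72 h. Shares of all genes are not at hand for either of these fits, so the counts cannot be set against them. In the fit of all libraries the replicate block gave 5 at 6 h (3) and changed no other count past 1.5 times and 0 of 352 named member calls. Same-numbered libraries deviated together, with every correlation over 0.1, at 0.5, 1, 2, 4 and 12 h of that comparison, and not at 6, 24, 48 and 72 h.

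Depth limits what can be said of Fads2 and Scd1 in naive cells, at 0.698 and 2.04 CPM, since the added 0.5 CPM understates the changes of low genes. With 3 libraries per group a missed call does not show that groups are alike.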
